A study of Mus musculus with 20 samples.

Results

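Transcripts of 8 genes that mark Langerhans cells and dendritic cells were followed in abdominal skin of 20 C57/B6 mice, 9 weeks old, with 1 microarray per mouse. The genes were Cd207, Epcam, Itgax, Flt3, Xcr1, Siglech, Irf8 and Ccr7. They were chosen by name, with earlier results of these data known. Each was represented by its single-symbol array feature with the highest mean over all 20 arrays. They are 8 of the 22180 genes that were tested. The HFD-IMQ group ate a high fat diet (HFD) and received imiquimod cream (IMQ, Aldara 5%). The HFD-vehicle group ate the same diet and received vehicle. The CD-IMQ group ate control chow (CD) and received imiquimod, and the CD-vehicle group ate control chow and received vehicle. Each group held 5 mice, and no genetic alteration is given for any of them. All mice were shaved on the abdomen, received 62.5 mg of cream daily for 5 days and were killed 24 h later. The sources used here do not give what the diets contained or how long they lasted. The 4 groups form a 2 by 2 design that asks what imiquimod does under each diet, what the diet does under each cream, and whether the imiquimod effect differs between diets.

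Langerhans cells are the dendritic cells of the epidermis. They renew within the skin, depend on the colony stimulating factor 1 receptor and its keratinocyte-derived ligand IL-34, and are held in place by adhesion molecules and TGF-beta signalling. The dermis holds conventional dendritic cells of type 1, which take up dead cells and present their antigens to CD8 T cells, and of type 2, which present mainly to CD4 T cells. Plasmacytoid dendritic cells sense nucleic acids through Toll-like receptors 7 and 9 and release type I interferon. Imiquimod is a ligand of Toll-like receptor 7, and its repeated application to mouse skin is widely used as a model of psoriasis-like inflammation. Upon activation, dendritic cells raise CCR7 and leave the skin through lymphatic vessels toward the draining lymph node.

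Of the 8 genes, 7 had promoter windows in the RefSeq annotation (GRCm38.p6), each reaching from 250 bases before to 50 bases after a start site. Irf8 had 2 windows, so there were 8 windows in all. Both strands were searched for 4 motifs. TGANTCA is the AP-1 motif and GAGGAAGT a PU.1 motif. The composite motif of PU.1 with an interferon regulatory factor was read as GGAA, any 2 bases and GAAA, and the interferon response motif as GAAA, any 2 bases and GAAA. The AP-1 motif was the one found, once in the Cd207 window and once in the Itgax window. It is shown in capitals below, beside the windows of Irf8 and Siglech, the 2 genes that moved in opposite directions under imiquimod and hold none of the 4 motifs. Cd207 lies at chr6:83677808-83678107 on the minus strand, Itgax at chr7:128129300-128129599, Irf8 at chr8:120736108-120736407 (its first window) and Siglech at chr7:55767934-55768233, all 3 on the plus strand.
Cd207: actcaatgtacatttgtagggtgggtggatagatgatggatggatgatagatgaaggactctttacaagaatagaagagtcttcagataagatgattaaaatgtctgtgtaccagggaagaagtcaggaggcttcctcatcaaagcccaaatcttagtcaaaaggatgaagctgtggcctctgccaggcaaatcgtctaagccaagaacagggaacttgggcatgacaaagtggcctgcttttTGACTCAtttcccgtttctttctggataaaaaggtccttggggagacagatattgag
Itgax: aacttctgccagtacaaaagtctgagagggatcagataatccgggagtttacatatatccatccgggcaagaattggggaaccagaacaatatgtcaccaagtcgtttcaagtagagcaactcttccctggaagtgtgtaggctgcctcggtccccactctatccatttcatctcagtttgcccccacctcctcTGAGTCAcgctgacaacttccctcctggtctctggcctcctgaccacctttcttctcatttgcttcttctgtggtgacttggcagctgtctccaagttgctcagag
Irf8: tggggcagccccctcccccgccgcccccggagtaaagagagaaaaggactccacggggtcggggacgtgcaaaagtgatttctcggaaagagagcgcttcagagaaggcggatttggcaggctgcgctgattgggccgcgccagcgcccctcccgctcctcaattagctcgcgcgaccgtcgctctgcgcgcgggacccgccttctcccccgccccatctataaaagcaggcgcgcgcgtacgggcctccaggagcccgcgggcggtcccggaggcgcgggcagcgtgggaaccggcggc
Siglech: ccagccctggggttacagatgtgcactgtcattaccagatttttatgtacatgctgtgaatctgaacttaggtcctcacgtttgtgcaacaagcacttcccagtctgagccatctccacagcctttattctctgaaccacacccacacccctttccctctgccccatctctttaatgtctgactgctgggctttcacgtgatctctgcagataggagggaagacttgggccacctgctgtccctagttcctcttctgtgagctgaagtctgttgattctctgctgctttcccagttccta

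In the Cd207 window the motif read TGACTCA and its first base stood at position -7 from the start site. In the Itgax window it read TGAGTCA and began at position -56. Over all 32851 promoter windows 7.808% held TGANTCA. The composite motif was in 2.715%, the interferon response motif in 3.443% and GAGGAAGT in 3.202% of them, and 0 of the 8 windows of these genes held any of the 3. A match describes letters in a window, and occupancy was not measured.

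All values are log2 values from robust multi-array averaging (RMA), and they are compared within a gene and never between genes, because features differ in brightness. A change of 1 on this scale is a doubling. A gene was called changed at a Benjamini-Hochberg adjusted p under 0.05 in limma, adjusted over all 22180 genes. Means are given with the SD over 5 mice and changes with the SE. Array medians lay between 2.86 and 3.04. All 4 group means of Xcr1 were below this range, so Xcr1 was near background. The group means of the other 7 genes were above it, that of Siglech in HFD-IMQ skin (3.09) only just. The mean of 7 interfollicular keratinocyte markers lay between 8.39 and 9.43 in the 4 groups, far above the medians, so epidermis was well detected in these samples. The 20 arrays correlated with one another at 0.936 to 0.981 over all genes. HFD-vehicle mouse 3 stood farthest from its group, with 42.8% of the squared distances in that group over all genes, and 40.1% over these 8 genes. In whole skin, fewer cells of a type and less RNA per cell cannot be told apart.

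**Figure D1:**
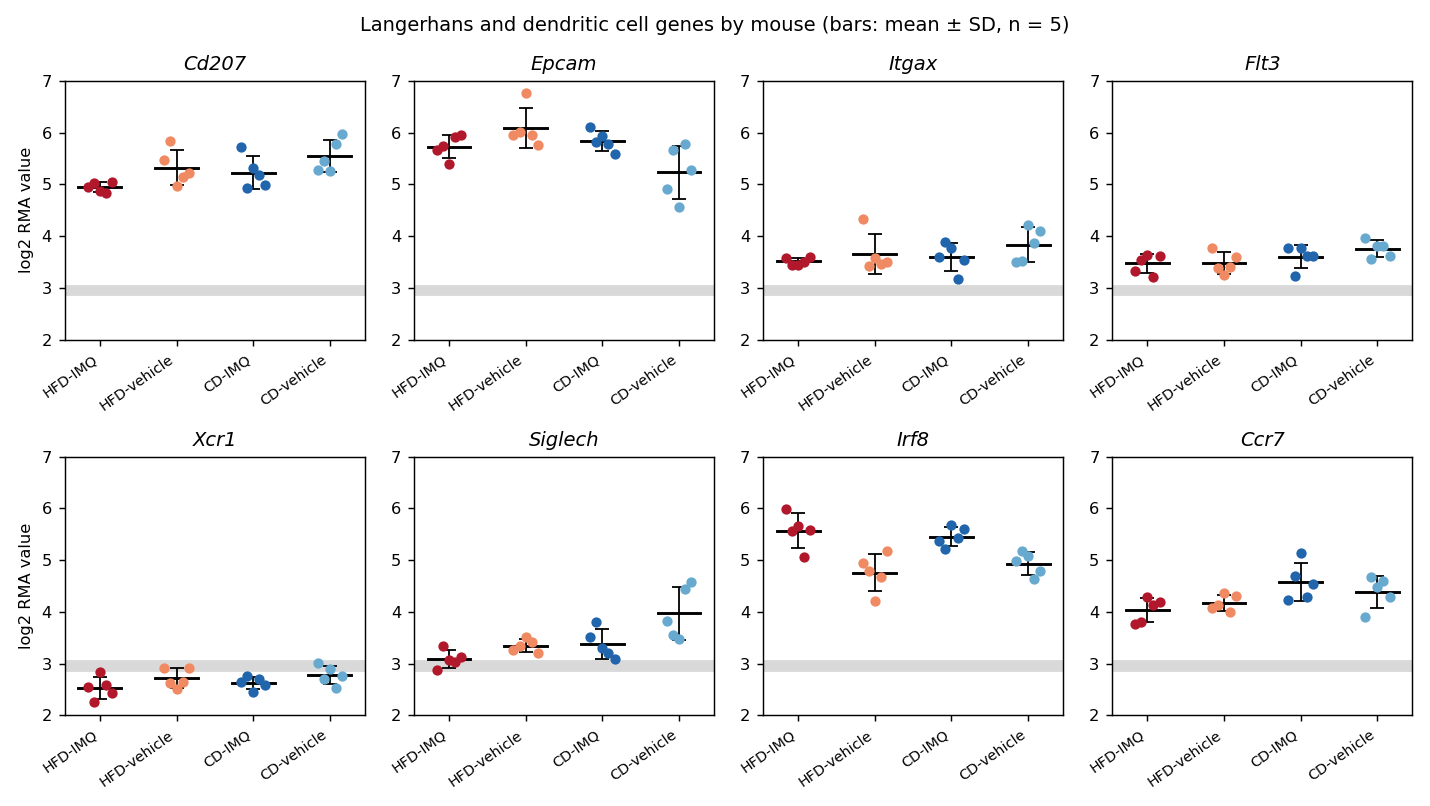
Log2 RMA values of the 8 genes in each mouse, 1 panel per gene, with groups from left to right as HFD-IMQ, HFD-vehicle, CD-IMQ and CD-vehicle. Points are mice, bars are group means and the grey band is the range of the array medians (2.86 to 3.04); Irf8 is higher in both imiquimod groups, Siglech is highest in 2 CD-vehicle mice, and Xcr1 lies in or below the band in all 20 mice.

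Irf8, which encodes a transcription factor needed for type 1 conventional dendritic cells and monocytes, was higher in imiquimod-treated skin under both diets. Siglech, a surface lectin of mouse plasmacytoid dendritic cells, was lower in CD-IMQ than in CD-vehicle skin. Epcam, a surface protein of Langerhans cells and of epithelial cells, was higher in HFD-vehicle than in CD-vehicle skin. Within a diet for imiquimod, and within a cream for the diet, no other difference of the 8 genes passed the test. HFD-IMQ against CD-vehicle and CD-IMQ against HFD-vehicle, which differ in both factors, were not tested.

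**Figure D2:**
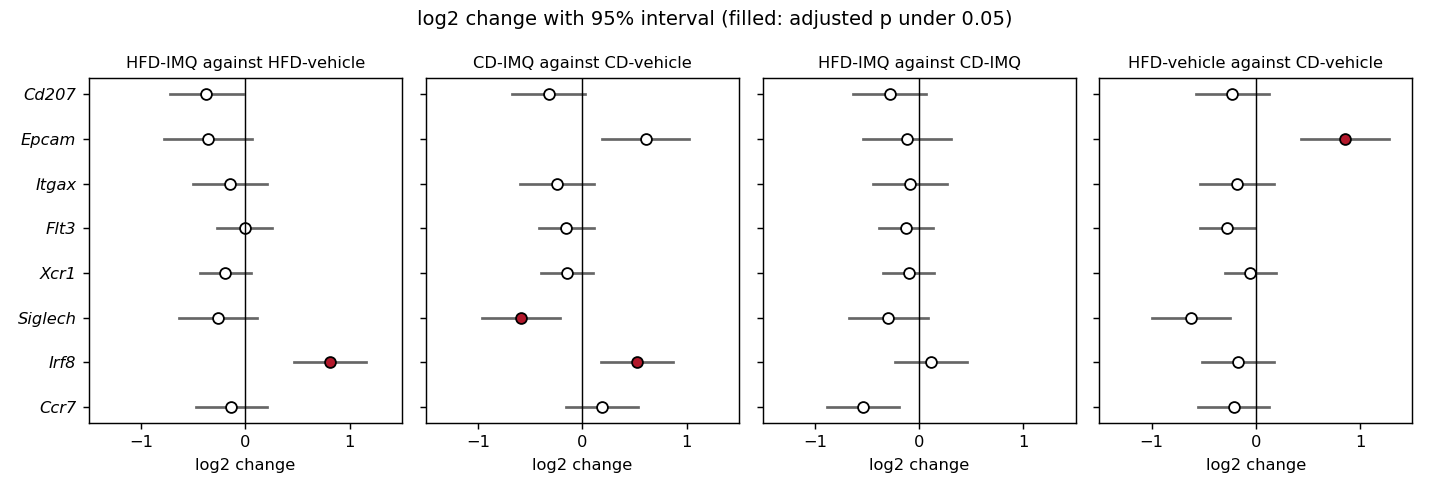
Log2 change of each gene (points) with its 95% confidence interval (bars) in the 4 comparisons tested between groups, the group named first over the second; filled points have an adjusted p under 0.05. Filled are Irf8 in both imiquimod comparisons (0.81 and 0.52), Siglech in CD-fed mice (-0.59) and Epcam for HFD-vehicle against CD-vehicle (0.85).

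Cd207 encodes langerin, the lectin that forms the Birbeck granules of Langerhans cells and is also carried by a part of the dermal dendritic cells. For mice 1 to 5 its values were 4.94, 5.04, 4.88, 4.83 and 5.05 in HFD-IMQ skin, against 5.48, 5.84, 4.96, 5.14 and 5.21 in HFD-vehicle skin. The HFD-IMQ mice lay close together and below 4 of the 5 HFD-vehicle mice, with an overlap through HFD-vehicle mouse 3. The mean was 4.95 ± 0.09 in HFD-IMQ skin and 5.33 ± 0.34 in HFD-vehicle skin, a change of -0.38 (SE 0.17, 95% interval -0.73 to -0.03, limma adjusted p = 0.246). CD-IMQ mice had 5.73, 4.93, 5.32, 5.18 and 4.99, against 5.29, 5.45, 5.27, 5.79 and 5.97 in CD-vehicle mice. Here 3 of the 5 CD-IMQ mice were below every CD-vehicle mouse, and mouse 1, the highest of the CD-IMQ group, was above 3 CD-vehicle mice. The CD-IMQ mean was 5.23 ± 0.32 and the CD-vehicle mean 5.55 ± 0.31, a change of -0.32 (SE 0.17, -0.67 to 0.02, adjusted p = 0.253). Averaged over both diets the imiquimod change was -0.35 (SE 0.12, limma adjusted p = 0.0564), short of the threshold. It passed in limma without CD-vehicle mouse 1 (adjusted p = 0.0449), CD-vehicle mouse 3 (0.0393), CD-IMQ mouse 1 (0.0165) or HFD-vehicle mouse 3 (0.0283).

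The order of the Cd207 means was CD-vehicle, HFD-vehicle, CD-IMQ and HFD-IMQ, from high to low. None of the 4 differences tested passed, and the step between HFD-vehicle and CD-IMQ was smaller than either SD. The genes whose values followed a member most closely were found on the same 20 arrays, so their own changes are not independent of it. For Cd207 they were Rora (Pearson r = 0.79), Il1r2 (r = 0.77) and Adh7 (r = 0.77). Of these Il1r2, the decoy receptor of interleukin 1, fell under imiquimod with both diets, by 0.50 (SE 0.15, limma adjusted p = 0.0434) in HFD-IMQ against HFD-vehicle skin and by 0.80 (SE 0.15, adjusted p = 0.000808) in CD-IMQ against CD-vehicle skin.

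Epcam encodes the epithelial cell adhesion molecule, a surface protein that Langerhans cells carry and that cells of the hair follicle make as well. Its values were 5.95, 6.01, 6.76, 5.96 and 5.76 in HFD-vehicle mice 1 to 5, against 4.91, 5.66, 4.56, 5.77 and 5.28 in CD-vehicle mice. HFD-vehicle mouse 3 was the highest of all 20 arrays and CD-vehicle mouse 3 the lowest. The groups overlapped by 1 mouse each, HFD-vehicle mouse 5 and CD-vehicle mouse 4. The mean was 6.09 ± 0.39 in HFD-vehicle skin and 5.24 ± 0.51 in CD-vehicle skin, a 1.80-fold higher level (log2 change 0.85, SE 0.20, 95% interval 0.43 to 1.27, limma adjusted p = 0.0277). This call was lost without HFD-vehicle mouse 3 (log2 change 0.68, limma adjusted p = 0.0791) and without CD-vehicle mouse 1 (0.77, adjusted p = 0.0690), mouse 3 (0.68, adjusted p = 0.0974) or mouse 5 (0.86, adjusted p = 0.0525). It was also lost when the HFD-vehicle and CD-vehicle arrays were fitted without the other groups (adjusted p = 0.120), and the change was 0.51 (adjusted p = 0.191) without HFD-vehicle mouse 3, HFD-IMQ mouse 4 and CD-vehicle mouse 3, each the farthest of its group over all genes.

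Under imiquimod Epcam was at a middle level with either diet, with CD-IMQ and then HFD-IMQ below HFD-vehicle and above CD-vehicle in the order of the 4 means. HFD-IMQ mice had 5.66, 5.75, 5.39, 5.91 and 5.95, against 6.10, 5.81, 5.93, 5.79 and 5.59 in CD-IMQ mice, and these groups overlapped over most of their ranges. The change between them was -0.11 (SE 0.20, 95% interval -0.53 to 0.30, limma adjusted p = 0.885). Against their own vehicle groups the imiquimod changes had opposite signs, -0.36 (SE 0.20, -0.78 to 0.06, adjusted p = 0.406) in HFD-fed mice and 0.61 (SE 0.20, 0.19 to 1.03, adjusted p = 0.0555) in CD-fed mice. The interaction, the imiquimod change in HFD-fed mice minus that in CD-fed mice, was -0.97 (SE 0.29, limma adjusted p = 0.101) and did not pass. The CD-fed change passed in limma without CD-vehicle mouse 2 (0.71, adjusted p = 0.0300), CD-vehicle mouse 4 (0.74, adjusted p = 0.0212) or HFD-vehicle mouse 3 (0.61, adjusted p = 0.0267).

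Epithelial markers were read beside Epcam. The mean of 12 hair follicle keratinocyte markers was 7.19 in HFD-vehicle skin (range over mice 6.48 to 8.54) and 5.07 in CD-vehicle skin (3.54 to 5.94), and 7 of the 12 were called higher in HFD-vehicle skin. HFD-vehicle mouse 3 held the highest value of this list as well as of Epcam, and CD-vehicle mouse 3 the lowest vehicle value of both. The list stood at 3.66 in HFD-IMQ skin (3.28 to 4.50) and 3.73 in CD-IMQ skin (3.46 to 3.97), with 11 of 12 called lower than in HFD-vehicle skin and 7 of 12 lower than in CD-vehicle skin. Epcam values of the CD-IMQ mice were in the middle of the 4 groups, as given above. The mean of 7 interfollicular keratinocyte markers was 9.04 in HFD-vehicle skin (8.76 to 9.22) and 8.39 in CD-vehicle skin (7.54 to 8.71), with 2 of 7 called higher. In CD-IMQ skin it was 9.40 (9.26 to 9.60), with 5 of 7 called higher than in CD-vehicle skin. In HFD-IMQ skin it was 9.43 (9.15 to 9.70), with 2 of 7 called higher than in HFD-vehicle skin. Epcam averaged 5.73 in HFD-IMQ and 6.09 in HFD-vehicle skin, a difference that was not called. The mean of 9 mammary epithelium markers was 3.21 in HFD-vehicle skin (2.99 to 3.60) and 2.98 in CD-vehicle skin (2.91 to 3.05), with none of the 9 called in limma and 3 of 9 at an unadjusted p under 0.05. HFD-vehicle mouse 3 had the highest value of the 20 mice for this list too, and 4 of the 9, Krt19, Csn2, Csn3 and Cldn7, were below the array medians in all groups. The mean of 8 sebaceous gland markers was 7.05 in HFD-vehicle skin (6.59 to 7.49) and 6.82 in CD-vehicle skin (5.85 to 7.41). None of the 8 was called between these groups. It was 6.61 in CD-IMQ skin (6.30 to 6.81), with 1 of 8 called higher and 1 lower than in CD-vehicle skin. In HFD-IMQ skin it was 6.06 (5.53 to 6.76), with 3 of 8 called lower than in HFD-vehicle skin. One defining follicle marker, Shh, was below the array medians in all 4 groups, and none of the interfollicular or sebaceous markers was. Their part in the Epcam result was not tested. The genes most like Epcam over the 20 arrays were Muc15 (r = 0.91), Rars (r = 0.91) and Bpifc (r = 0.90). Rars, a transfer RNA synthetase, was called higher in HFD-vehicle than in CD-vehicle skin (log2 change 0.55, SE 0.12, adjusted p = 0.0147).

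Itgax encodes CD11c, the integrin subunit by which dendritic cells are commonly sorted, although macrophages carry it too. Its values ranged from 3.44 to 3.59 in HFD-IMQ mice and from 3.42 to 4.34 in HFD-vehicle mice. CD-IMQ mice ranged from 3.18 to 3.89 and CD-vehicle mice from 3.49 to 4.22. All 4 ranges overlapped, and HFD-vehicle mouse 1 was the highest of the 20. The imiquimod change was -0.15 (SE 0.17, 95% interval -0.50 to 0.21) in HFD-fed mice and -0.24 (SE 0.17, -0.60 to 0.11) in CD-fed mice, with limma adjusted p of 0.770 and 0.425. Without HFD-vehicle mouse 1 the change in HFD-fed mice was 0.02, with the sign turned. The means ordered as CD-vehicle (3.84 ± 0.33), HFD-vehicle (3.66 ± 0.38), CD-IMQ (3.59 ± 0.27) and HFD-IMQ (3.51 ± 0.07), and none of the 4 differences tested passed. Mmp12, the macrophage elastase, was the gene most like Itgax (r = 0.73), followed by Setd3 (r = 0.73) and Phykpl (r = 0.71).

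Flt3 encodes the receptor for the growth factor that drives dendritic cell development from bone marrow progenitors. It ranged from 3.22 to 3.64 in HFD-IMQ mice, 3.25 to 3.77 in HFD-vehicle mice, 3.23 to 3.78 in CD-IMQ mice and 3.56 to 3.96 in CD-vehicle mice. The groups overlapped throughout. The imiquimod change was -0.01 (SE 0.13, 95% interval -0.27 to 0.25, limma adjusted p = 0.989) in HFD-fed mice and -0.15 (SE 0.13, -0.42 to 0.11, adjusted p = 0.505) in CD-fed mice. HFD-vehicle was lower than CD-vehicle by a log2 change of -0.27 (SE 0.13, -0.54 to -0.01, adjusted p = 0.311), which did not pass. From high to low the means were those of the CD-vehicle, the CD-IMQ, the HFD-vehicle and the HFD-IMQ mice. The steps between CD-vehicle and CD-IMQ and between HFD-vehicle and HFD-IMQ did not pass, and that between CD-IMQ and HFD-vehicle was not tested and was smaller than either SD. S100a4 (r = 0.71), Spindoc and Nav1 (both r = 0.70) were most like it.

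Xcr1 encodes the receptor for the chemokine XCL1 and marks type 1 conventional dendritic cells. Its values ranged from 2.25 to 2.83 in HFD-IMQ mice, 2.51 to 2.92 in HFD-vehicle mice, 2.46 to 2.75 in CD-IMQ mice and 2.53 to 3.0 in CD-vehicle mice. These are levels near background, so the changes of -0.19 (SE 0.12) under imiquimod in HFD-fed mice and -0.15 (SE 0.12) in CD-fed mice are of uncertain size, with limma adjusted p of 0.463 and 0.499. Its order was that of Cd207 and Itgax, and none of the 4 differences tested passed. The genes most like it were Ntmt1 (r = 0.82), Pygo1 (r = 0.79) and Stk32c (r = 0.79).

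Siglech encodes a sialic acid binding lectin that marks mouse plasmacytoid dendritic cells and some tissue macrophages. CD-IMQ mice 1 to 5 had 3.52, 3.81, 3.30, 3.21 and 3.08, against 3.82, 3.54, 3.47, 4.44 and 4.58 in CD-vehicle mice. CD-vehicle mice 4 and 5 were above all the other arrays, and CD-IMQ mice 1 and 2 overlapped with the lower CD-vehicle mice. The mean was 3.38 ± 0.29 in CD-IMQ skin and 3.97 ± 0.51 in CD-vehicle skin, a 1.5-fold lower level (log2 change -0.59, SE 0.18, 95% interval -0.96 to -0.21, limma adjusted p = 0.0382). The call was lost without CD-vehicle mouse 4 (log2 change -0.47, limma adjusted p = 0.113) or mouse 5 (-0.44, adjusted p = 0.122), and without CD-IMQ mouse 3, 4 or 5 (adjusted p of 0.0770, 0.0958 and 0.109). It was also lost with quantile normalisation (adjusted p = 0.0540), with array medians subtracted (0.0512) and with the CD groups fitted alone (0.10).

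In HFD-fed mice Siglech averaged 3.09 ± 0.17 in HFD-IMQ skin and 3.35 ± 0.12 in HFD-vehicle skin. HFD-IMQ mice had 2.88, 3.34, 3.07, 3.03 and 3.13, against 3.26, 3.34, 3.51, 3.42 and 3.21 in HFD-vehicle mice, and HFD-IMQ mice 1, 3, 4 and 5 were below every HFD-vehicle mouse. The change was -0.26 (SE 0.18, 95% interval -0.64 to 0.11, limma adjusted p = 0.542). HFD-IMQ mice 1 and 4 lay within the range of the array medians. The size of this change, and of the interaction given below, is therefore uncertain. HFD-vehicle against CD-vehicle gave -0.62 (SE 0.18, -1.0 to -0.25, adjusted p = 0.0757), and this passed in limma without CD-vehicle mouse 2 (adjusted p = 0.0396) or mouse 3 (0.0428). The imiquimod change averaged over diets was -0.43 (SE 0.13, adjusted p = 0.0298). That call was lost without CD-vehicle mouse 4 or 5, CD-IMQ mouse 3, 4 or 5, HFD-vehicle mouse 4 or HFD-IMQ mouse 1, with adjusted p of at most 0.0627. The interaction was 0.33 (SE 0.26, adjusted p = 0.566). CD-vehicle had the highest mean, followed by CD-IMQ and HFD-vehicle, which differed by less than either SD, and HFD-IMQ had the lowest. Abhd3 (r = 0.83), Cyp2f2 (r = 0.82) and Acox3 (r = 0.81) followed Siglech most closely.

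Irf8 encodes interferon regulatory factor 8, which is needed for type 1 conventional dendritic cells and is also made by plasmacytoid dendritic cells, monocytes, macrophages and B cells. HFD-IMQ mice 1 to 5 had 5.99, 5.56, 5.66, 5.06 and 5.58, against 4.95, 4.79, 4.21, 4.68 and 5.17 in HFD-vehicle mice. Only HFD-IMQ mouse 4 was below the highest HFD-vehicle mouse. The mean was 5.57 ± 0.33 in HFD-IMQ skin and 4.76 ± 0.36 in HFD-vehicle skin, a 1.75-fold higher level (log2 change 0.81, SE 0.17, 95% interval 0.46 to 1.16, limma adjusted p = 0.00357). The call was kept in all 29 alternatives. A second Irf8 feature lay near background, at 2.72 ± 0.36 in HFD-IMQ and 2.47 ± 0.21 in HFD-vehicle skin, and the mean of both features gave a smaller change of 0.53 (limma adjusted p = 0.0425).

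In CD-fed mice Irf8 values were 5.36, 5.21, 5.68, 5.43 and 5.60 in CD-IMQ skin, against 4.98, 5.18, 5.07, 4.65 and 4.78 in CD-vehicle skin. The groups did not overlap, with a narrow gap between CD-IMQ mouse 2 and CD-vehicle mouse 2. The mean was 5.46 ± 0.19 in CD-IMQ skin and 4.93 ± 0.22 in CD-vehicle skin, a 1.44-fold higher level (log2 change 0.52, SE 0.17, 95% interval 0.17 to 0.87, limma adjusted p = 0.0469). This adjusted p was close to the threshold and was above it without any 1 of 14 arrays, with a log2 change between 0.45 and 0.56 in those fits. These were CD-IMQ mice 1, 3, 4 and 5, CD-vehicle mice 1, 3, 4 and 5, HFD-IMQ mice 2, 3 and 5 and HFD-vehicle mice 1, 2 and 4, and the highest adjusted p was 0.120, without CD-vehicle mouse 4. The second Irf8 feature averaged 2.86 ± 0.26 in CD-IMQ and 2.37 ± 0.26 in CD-vehicle skin. Averaged over diets the imiquimod change of Irf8 was 0.67 (SE 0.12, limma adjusted p = 0.000397), and the interaction was 0.29 (SE 0.24, adjusted p = 0.591). The order of the means was HFD-IMQ, CD-IMQ, CD-vehicle and HFD-vehicle. HFD-IMQ and CD-IMQ differed by 0.11 (SE 0.17, adjusted p = 0.851), and HFD-vehicle and CD-vehicle by -0.17 (SE 0.17, adjusted p = 0.711).

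Macrophage markers moved beside Irf8. The mean of 12 of them was 8.31 in HFD-IMQ skin (range over mice 8.08 to 8.67) and 7.51 in HFD-vehicle skin (7.01 to 7.73), with 11 of 12 called higher. It was 8.14 in CD-IMQ skin (7.90 to 8.31) and 7.64 in CD-vehicle skin (7.48 to 7.79), with 6 of 12 called higher. None of the 12 was below the array medians in all groups, so the list was well detected. HFD-IMQ mouse 1 was highest and HFD-vehicle mouse 3 lowest of the 20 mice for both Irf8 and this list. Of 10 measured B cell and lymphoid follicle markers, 3 were called higher in HFD-IMQ and 2 in CD-IMQ skin, and 5 of the 10, among them Ms4a1 and Cd79a, were below the array medians in all groups. Their part in the Irf8 result was not tested. The genes most like Irf8 were Arhgap45 (r = 0.93), Arrb2 (r = 0.92) and Pirb (r = 0.92). Pirb, an inhibitory receptor of myeloid and B cells, was higher in HFD-IMQ than in HFD-vehicle skin by 1.15 (SE 0.17, adjusted p = 0.000114) and in CD-IMQ than in CD-vehicle skin by 0.59 (SE 0.17, adjusted p = 0.0262).

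**Figure D3:**
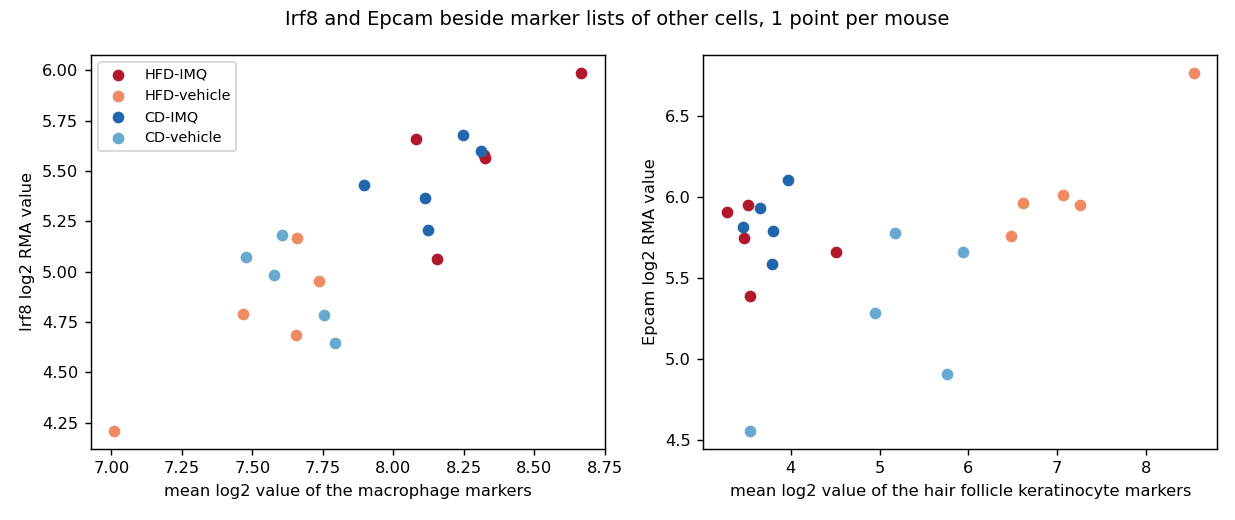
Left, log2 RMA value of Irf8 against the mean log2 value of 12 macrophage markers; right, Epcam against the mean of 12 hair follicle keratinocyte markers, 1 point per mouse coloured by group. HFD-vehicle mouse 3 is lowest in both measures on the left (4.21 and 7.01) and highest in both on the right (6.76 and 8.54).

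Ccr7 encodes the chemokine receptor with which activated dendritic cells, and also T cells, travel to lymph nodes. HFD-IMQ mice had 3.77, 3.81, 4.28, 4.14 and 4.18, against 4.23, 4.69, 5.14, 4.29 and 4.53 in CD-IMQ mice. The groups overlapped through HFD-IMQ mouse 3 and CD-IMQ mouse 1 alone. The mean was 4.04 ± 0.23 in HFD-IMQ skin and 4.58 ± 0.37 in CD-IMQ skin, a change of -0.54 (SE 0.16, 95% interval -0.88 to -0.20). The unadjusted p was 0.00348 and the limma adjusted p 0.316, so the difference did not pass over all genes. None of the 22180 genes did in that comparison, while 2289 (10.3%) had an unadjusted p under 0.05.

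HFD-vehicle mice had Ccr7 values of 4.07, 4.12, 4.36, 4.01 and 4.31, against 3.90, 4.68, 4.47, 4.59 and 4.28 in CD-vehicle mice. The CD-vehicle mice spread more widely and included the lowest and the 3 highest of these 10. The change was -0.21 (SE 0.16, 95% interval -0.55 to 0.13, limma adjusted p = 0.615). The imiquimod change was -0.14 (SE 0.16, -0.48 to 0.21, adjusted p = 0.783) in HFD-fed mice and 0.19 (SE 0.16, -0.15 to 0.53, adjusted p = 0.541) in CD-fed mice, with an interaction of -0.32 (SE 0.23, adjusted p = 0.521). Averaged over creams the diet change was -0.38 (SE 0.12, adjusted p = 0.215). The order was CD-IMQ, CD-vehicle, HFD-vehicle and HFD-IMQ, and each step between neighbours was smaller than the larger SD of the 2. The mean of 8 T cell markers was 3.86 in HFD-IMQ skin (3.67 to 4.02) and 3.91 in CD-IMQ skin (3.82 to 4.0), with none of the 8 called, and Cd8a and Cd8b1 were below the array medians in all groups. Tmem256 (r = 0.71), Ube2k (r = 0.69) and Atp5l (r = 0.67) were the genes most like Ccr7.

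Counted over the 8 genes, imiquimod in HFD-fed mice gave 1 call higher (Irf8) and 0 lower, where 5.89% of all genes were called, 3.65% higher and 2.24% lower. In CD-fed mice it gave 1 higher (Irf8) and 1 lower (Siglech), where 10.9% of all genes were called, 3.91% higher and 7.02% lower. HFD-vehicle against CD-vehicle gave 1 higher (Epcam), where 2.18% of all genes were called, 1.22% higher and 0.956% lower. HFD-IMQ against CD-IMQ gave none of 8 in limma, where 0% of all genes were called, and 1 of 8 (Ccr7) at an unadjusted p under 0.05, against 10.3% of all genes. The interaction called none of the 8, where 0.663% of all genes were called, and 1 of 8 (Epcam) at an unadjusted p under 0.05, against 15.9% of all genes. With both diets averaged, imiquimod gave 1 higher and 1 lower, where 12.5% of all genes were called, and the diet averaged over creams gave none, where 0.41% were called. Groups that did not overlap were seen for 1 of the 8 genes (Irf8) in CD-IMQ against CD-vehicle skin, where 8.89% of all genes had them. They were seen for 0 of 8 in HFD-IMQ against HFD-vehicle (6.06% of all genes), HFD-vehicle against CD-vehicle (3.94%) and HFD-IMQ against CD-IMQ skin (1.67%). With 8 genes these counts are too small to set the group apart from the background.

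The median change of the 8 genes was -0.17 for imiquimod in HFD-fed mice and -0.15 in CD-fed mice, against medians over all genes of -0.0007 and 0.016. It was -0.12 for HFD-IMQ against CD-IMQ and -0.20 for HFD-vehicle against CD-vehicle, against -0.001 and -0.008 over all genes. These comparisons share groups, so their medians are not independent of one another. HFD-IMQ had the lowest of the 4 group means for 6 of the 8 genes, all but Epcam and Irf8, while it had the lowest mean for 22.4% of all genes. None of the 6 was called lower in HFD-IMQ than in HFD-vehicle or CD-IMQ skin. For Flt3 the change from HFD-vehicle to HFD-IMQ skin was -0.0077, and its sign turned in 7 of 29 alternatives. That of Itgax turned in 1 of 29, and Xcr1 lay near background. CD-vehicle had the highest mean for 5 of the 8, namely Cd207, Itgax, Flt3, Xcr1 and Siglech, against 27.4% of all genes. For the diet averaged over creams, 7 of 8 changes were negative, with Epcam the exception. An unadjusted p under 0.05 was reached there by 5 of the 8 (Cd207, Epcam, Flt3, Siglech and Ccr7), against 10.1% of all genes, and by none after adjustment in limma. The 5 changes were -0.25 for Cd207, 0.37 for Epcam, -0.20 for Flt3, -0.46 for Siglech and -0.38 for Ccr7, with adjusted p between 0.157 and 0.478.

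The 8 genes varied among mice of a group without a common direction. Of the 28 pairs of genes, 15 had a positive and 13 a negative correlation of the deviations from their group means over the 20 mice. Siglech and Irf8 went opposite ways within groups, with Pearson r = -0.58 (permutation p = 0.00122, adjusted over 28 pairs 0.0342) and Spearman rho = -0.74 (permutation p = 0.00052, adjusted 0.0146). Without CD-vehicle mice 4 and 5, the mice farthest from the median of Siglech, r was -0.55. Epcam and Xcr1 gave r = -0.66 (permutation p = 0.00321, adjusted 0.0449) and rho = -0.66 (permutation p = 0.00383, adjusted 0.0536), and r = -0.64 without CD-vehicle mouse 3 and HFD-vehicle mouse 3. Xcr1 lies near background, which limits that pair. The highest positive value was that of Flt3 and Irf8 (r = 0.46, adjusted permutation p = 0.456). The mice of a group share no known batch in the labels, so values within batches cannot be given.

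Other genes of dendritic cell biology were taken from a list of 58, of which 54 were measured by a single-symbol feature. In HFD-IMQ against HFD-vehicle skin, 10 of the 54 were called higher and 2 lower, with a median change of 0.07, where 3.65% of all genes were called higher and 2.24% lower. In CD-IMQ against CD-vehicle skin, 4 were called higher and 8 lower, with a median of -0.0039. Over all genes 3.91% were called higher and 7.02% lower. The share over all genes includes dim genes, and in this comparison it rose when they were left out, as given in the last section. Few of the 54 lay below the array medians in all groups, so the share over all genes is a low background for this list. HFD-vehicle against CD-vehicle gave 0 higher and 3 lower with a median of -0.18, where 1.22% of all genes were called higher and 0.956% lower. HFD-IMQ against CD-IMQ gave none in limma, with 5 of the 54 at an unadjusted p under 0.05, against 10.3% of all genes. The interaction gave none, with 13 of the 54 at an unadjusted p under 0.05, against 15.9% of all genes, so for the genes named below a difference between diets in the imiquimod change did not pass.

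**Figure D4:**
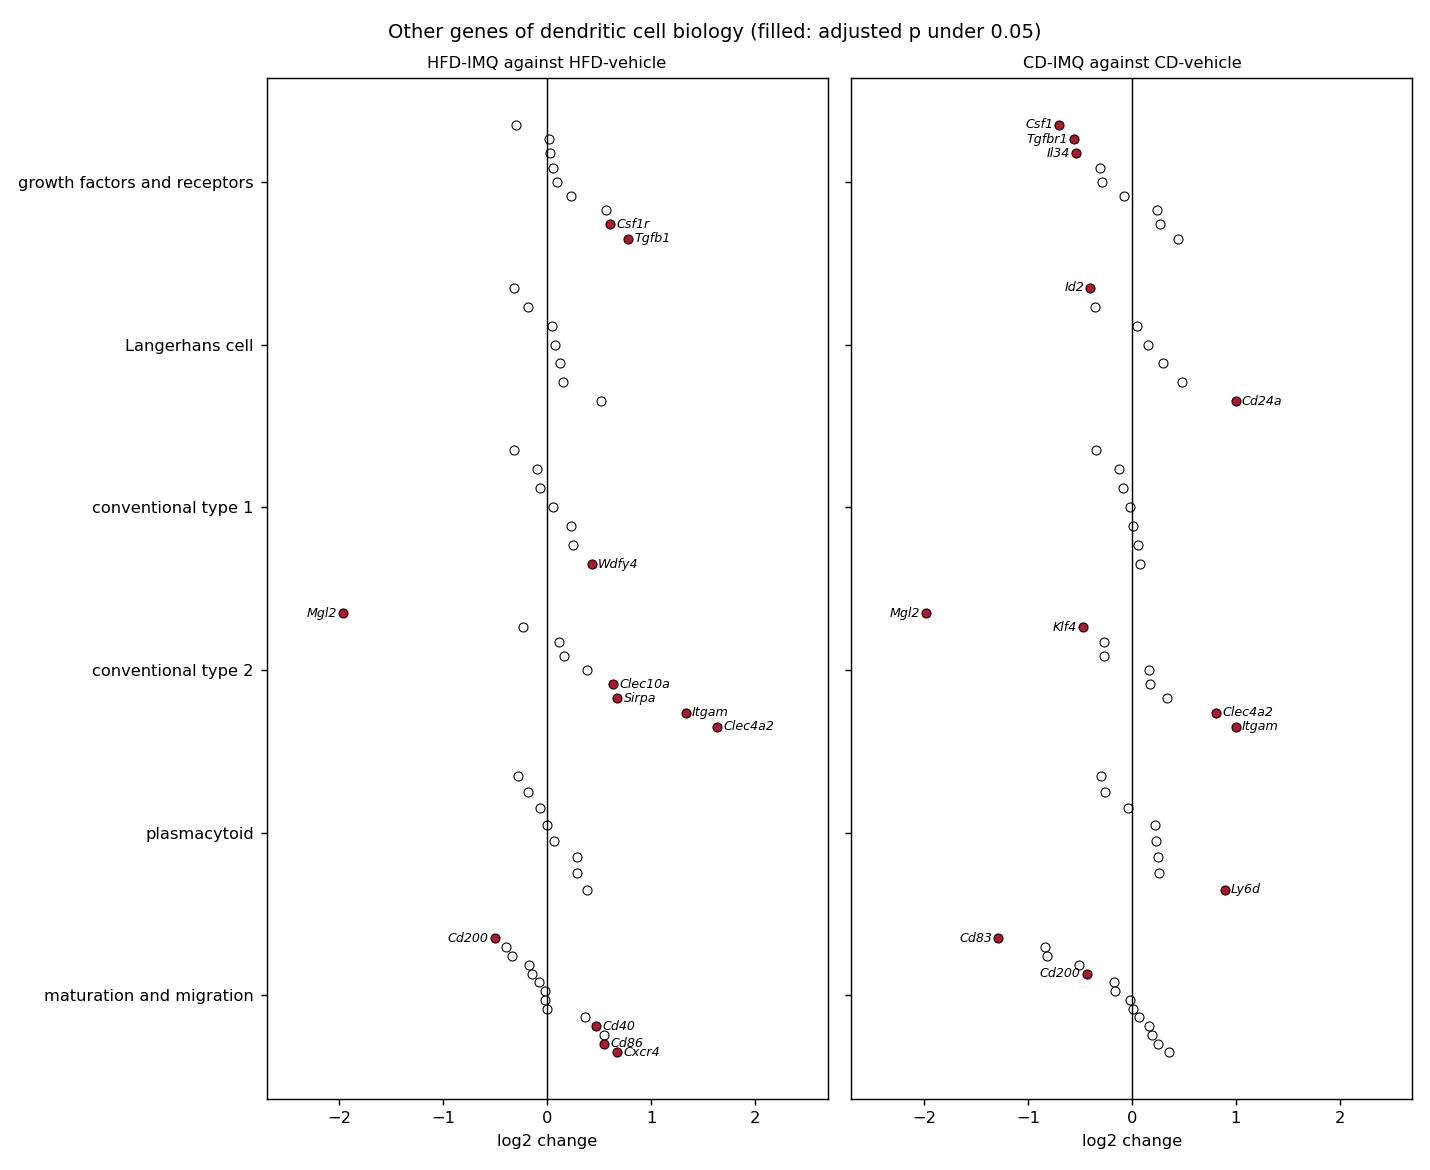
Log2 change of the 54 measured genes of the dendritic cell list by role, for HFD-IMQ against HFD-vehicle (left) and CD-IMQ against CD-vehicle (right); each point is a gene, and filled, named points have an adjusted p under 0.05. Mgl2 is the farthest to the left in both panels (-1.96 and -1.98), and Clec4a2 is the farthest to the right in the left panel (1.64).

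Among growth factors and their receptors, imiquimod called 2 of 9 higher in HFD-fed mice and 3 of 9 lower in CD-fed mice. Tgfb1, the cytokine that keeps Langerhans cells in the epidermis, averaged 6.64 ± 0.36 in HFD-IMQ skin and 5.86 ± 0.16 in HFD-vehicle skin, a rise of 0.78 (SE 0.15, limma adjusted p = 0.00150). In CD-IMQ skin it averaged 6.47 ± 0.21 and in CD-vehicle skin 6.03 ± 0.17, without overlap and short of the threshold (log2 change 0.44, SE 0.15, adjusted p = 0.0534). Csf1r, the receptor on which Langerhans cells and macrophages depend, rose by 0.61 (SE 0.14, adjusted p = 0.00843), a call lost in 1 of 29 alternatives, and it is a macrophage marker too. Its change in CD-fed mice was 0.27 (SE 0.14, adjusted p = 0.253). In CD-fed mice Csf1, a ligand of that receptor, averaged 4.68 ± 0.29 in CD-IMQ skin and 5.37 ± 0.14 in CD-vehicle skin, a change of -0.70 (SE 0.16, adjusted p = 0.00707). It averaged 4.88 ± 0.36 in HFD-IMQ and 5.18 ± 0.27 in HFD-vehicle skin, a change of the same sign that did not pass (-0.30, SE 0.16, adjusted p = 0.397). Il34, the other ligand and the one made by keratinocytes, averaged 3.52 ± 0.18 in CD-IMQ and 4.06 ± 0.13 in CD-vehicle skin (log2 change -0.54, SE 0.12, adjusted p = 0.00432), with no overlap of the groups. In HFD-fed mice Il34 averaged 3.76 ± 0.19 in HFD-IMQ and 3.74 ± 0.20 in HFD-vehicle skin. Tgfbr1, a TGF-beta receptor, was lower in CD-IMQ skin by a log2 change of -0.56 (SE 0.18, adjusted p = 0.0425), a call lost in 13 of 29 alternatives, and its change in HFD-fed mice was 0.03 (SE 0.18, adjusted p = 0.972).

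Of 7 further Langerhans cell genes, imiquimod called 1 higher and 1 lower in CD-fed mice and none in HFD-fed mice. Cd24a, a surface glycoprotein of Langerhans cells that epithelial cells also make, averaged 7.52 ± 0.21 in CD-IMQ and 6.52 ± 0.66 in CD-vehicle skin (log2 change 1.0, SE 0.24, limma adjusted p = 0.00698). Id2, a transcriptional regulator needed for Langerhans cells, averaged 6.39 ± 0.23 in CD-IMQ and 6.80 ± 0.12 in CD-vehicle skin (log2 change -0.40, SE 0.12, adjusted p = 0.0315), and this call was lost in 7 of 29 alternatives. In HFD-fed mice the changes had the same signs and did not pass, at 0.52 (SE 0.24, adjusted p = 0.254) for Cd24a and -0.31 (SE 0.12, adjusted p = 0.148) for Id2. Ly75, the lectin DEC-205 of Langerhans cells, was below the array medians in all groups.

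Of 7 type 1 genes besides Xcr1 and Irf8, 1 was called higher in HFD-IMQ skin and none in CD-IMQ skin. It was Wdfy4, needed for cross-presentation, with 4.75 ± 0.22 in HFD-IMQ and 4.32 ± 0.22 in HFD-vehicle skin (log2 change 0.43, SE 0.13, limma adjusted p = 0.0467), a call lost in 15 of 29 alternatives, and its value in CD-fed mice was 0.01 (SE 0.13, adjusted p = 0.980). Of 9 type 2 genes, 4 were called higher and 1 lower in HFD-IMQ skin, and 2 higher and 2 lower in CD-IMQ skin. Mgl2, a galactose-binding lectin (CD301b) of dermal type 2 dendritic cells and macrophages, had the largest change of the list. It ranged from 3.71 to 4.83 in HFD-IMQ mice and from 6.02 to 6.30 in HFD-vehicle mice, a 3.89-fold lower level (log2 change -1.96, SE 0.23, adjusted p = 7.86e-06). It ranged from 3.89 to 5.33 in CD-IMQ mice and from 6.32 to 7.13 in CD-vehicle mice, 3.94-fold lower (log2 change -1.98, SE 0.23, adjusted p = 5.41e-06). The groups did not overlap under either diet, and the 2 calls held in all 29 alternatives.

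Clec4a2, an inhibitory C-type lectin of dendritic cells, monocytes and macrophages, rose by 1.64 (SE 0.16, limma adjusted p = 7.56e-07) in HFD-IMQ and by 0.81 (SE 0.16, adjusted p = 0.00208) in CD-IMQ skin. Itgam, the integrin subunit CD11b of type 2 dendritic cells, macrophages and neutrophils, rose by 1.33 (SE 0.19, adjusted p = 8.79e-05) and by 1.0 (SE 0.19, adjusted p = 0.00136) in the same comparisons. These 4 calls were kept in all 29 alternatives. The macrophage markers given beside Irf8 rose in the same comparisons, and Itgam and Csf1r are members of both lists. Of 8 neutrophil markers, 6 were called higher in HFD-IMQ and 5 in CD-IMQ skin. Their mean was 5.97 in HFD-IMQ skin (5.59 to 6.19) and 3.69 in HFD-vehicle skin (3.45 to 4.01), and 5.66 in CD-IMQ skin (5.33 to 5.87) and 3.36 in CD-vehicle skin (2.98 to 3.73). Ly6g, a defining neutrophil marker, was below the array medians in all groups. The rise of the mean was largest in S100a8, S100a9 and Stfa2l1, so the mean does not by itself measure neutrophil number. The receptor genes Csf3r and Cxcr2 were also called higher under both diets, and kept these calls in all 29 alternatives. Csf3r averaged 5.59 in HFD-IMQ and 4.13 in HFD-vehicle skin, and 5.29 in CD-IMQ and 4.18 in CD-vehicle skin. Cxcr2 averaged 5.34 in HFD-IMQ and 3.87 in HFD-vehicle skin, and 4.63 in CD-IMQ and 3.69 in CD-vehicle skin. S100a8 averaged 9.70 in HFD-IMQ and 4.91 in HFD-vehicle skin, and 9.41 in CD-IMQ and 3.28 in CD-vehicle skin. Mmp9 was not called, at 4.80 and 4.34 in HFD-fed mice and 4.76 and 4.75 in CD-fed mice. The part of macrophages and neutrophils in the Clec4a2 and Itgam results was not tested.

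Of 8 plasmacytoid genes besides Siglech, 1 was called higher in CD-IMQ skin and none in HFD-IMQ skin. It was Ly6d, which keratinocytes express as well, with 8.88 ± 0.14 in CD-IMQ and 7.99 ± 0.89 in CD-vehicle skin (log2 change 0.89, SE 0.28, limma adjusted p = 0.0449), a call lost in 18 of 29 alternatives, with changes down to 0.54, and its value in HFD-fed mice was 0.29 (SE 0.28, adjusted p = 0.712). Tcf4, the transcription factor that sets the plasmacytoid fate, gave -0.30 (SE 0.10, limma adjusted p = 0.0650) in CD-IMQ skin and did not pass. Bst2 of this list went the other way and was not called. It averaged 6.25 in HFD-IMQ and 5.87 in HFD-vehicle skin, and 6.27 in CD-IMQ and 6.01 in CD-vehicle skin. Under each diet 5 of the 8 imiquimod changes were positive and 3 negative. Spib, Ccr9 and Klk1 of this list were below the array medians in all groups. Siglech was the 1 plasmacytoid gene called lower.

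Of 14 maturation and migration genes besides Ccr7, 3 were called higher and 1 lower in HFD-IMQ skin, and none higher and 2 lower in CD-IMQ skin. Cxcr4, a chemokine receptor with which dermal dendritic cells leave the skin, averaged 5.80 ± 0.30 in HFD-IMQ and 5.12 ± 0.34 in HFD-vehicle skin (log2 change 0.68, SE 0.16, limma adjusted p = 0.0107). Cd86, a costimulatory ligand for T cells, averaged 4.95 ± 0.11 in HFD-IMQ and 4.40 ± 0.23 in HFD-vehicle skin (log2 change 0.55, SE 0.14, adjusted p = 0.0176), a call lost without HFD-vehicle mouse 3 (adjusted p = 0.111). Cd83, a glycoprotein of mature dendritic cells, ranged from 4.96 to 5.41 in CD-IMQ mice and from 5.36 to 7.13 in CD-vehicle mice, a 2.44-fold lower level (log2 change -1.28, SE 0.24, adjusted p = 0.000877). In HFD-fed mice the value for Cd83 was -0.40 (SE 0.24, adjusted p = 0.437), and in CD-fed mice Cxcr4 gave -0.16 (SE 0.16, adjusted p = 0.590) and Cd86 0.16 (SE 0.14, adjusted p = 0.526). Cd200, an inhibitory ligand, was lower in both comparisons, by log2 changes of -0.50 (SE 0.14, adjusted p = 0.0329) in HFD-IMQ and -0.44 (SE 0.14, adjusted p = 0.0477) in CD-IMQ skin, calls lost in 9 and 18 of 29 alternatives. Ccl17, a chemokine of mature dendritic cells, gave -0.34 (SE 0.32, adjusted p = 0.695) in HFD-IMQ and -0.82 (SE 0.32, adjusted p = 0.107) in CD-IMQ skin.

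The 3 genes of the list called lower in HFD-vehicle than in CD-vehicle skin were Cd83, Cxcr4 and Klf4. Cd83 ranged from 4.94 to 5.57 in HFD-vehicle mice and from 5.36 to 7.13 in CD-vehicle mice (log2 change -1.12, SE 0.24, limma adjusted p = 0.0112), a call lost in 2 of 29 alternatives. Cxcr4 ranged from 4.95 to 5.72 in HFD-vehicle mice and from 5.89 to 5.99 in CD-vehicle mice, which lay close together and apart from the HFD-vehicle mice (log2 change -0.80, SE 0.16, adjusted p = 0.00798). The Cxcr4 call was kept in all 29 alternatives. Klf4, a transcription factor of type 2 dendritic cells that keratinocytes also express, gave -0.55 (SE 0.15, adjusted p = 0.0482), a call lost in 22 of 29 alternatives. HFD-vehicle skin is thus the lower side of Cxcr4 in both comparisons that use it, and since they share those 5 arrays they are not independent.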

How the data were processed

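Trizol-extracted RNA (300 ng per mouse) was labelled with the GeneChip WT PLUS kit, per the labels' protocols. The deposited values are log2 values made by the authors with RMA in the affy package, per the submitters' processing notes. Neither a genome build nor scan dates are stated in these sources, nor is joint normalisation of the arrays. Of 41345 features 23521 carried 1 gene symbol, 1814 several and 16010 none; 23328 matched RefSeq, which changed 0 symbols. Genes with several features (1082) were represented by the feature of highest mean, and dim genes were kept.

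Groups were taken from the labels. A model with 1 mean per group took in all 20 arrays (limma 3.58.1, R 4.3.3, lmFit, contrasts and eBayes), with p-values adjusted by Benjamini-Hochberg over 22180 genes in each of 7 contrasts. The fit was tested on simulated data. Correlations used deviations from group means and 100000 two-sided permutations over mice (scipy 1.17.1). Likeness was the Pearson r over 20 arrays among 10539 genes above the median of all genes, leaving out predicted and small RNA names; it was not tested. From the dendritic cell list, up to 3 called genes per role and comparison with the largest changes were named. Their values in the other diet are given too. Tcf4, Bst2, Ccl17 and the dim genes fall outside this rule and were added after their values were seen. The labels give no pairing of mice by replicate number. Of 30 same-number correlations of residuals, 4 were above 0.1 (range -0.22 to 0.32). Mice with different numbers were not correlated beside them, so these values cannot decide whether the numbers share a batch or a pairing. Alternatives were 3 other normalisations or filters, 2 other moderated fits, a replicate block, the mean of all features, the compared groups alone and leaving out each array. Leaving out the 3 farthest arrays together, and counting the dendritic cell list under every alternative, were chosen after seeing the data. Members and lists were chosen with earlier results of these data known. The number of arrays limits the precision. The limma p-values weigh differences between groups against the spread between mice.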

Additional observations from a re-analysis of the deposited data

Results flagged for a closer look

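In 2 of 32 sets of 5 mice (8 genes in 4 groups), 1 mouse stood far from the other mice of its group by Dixon's ratio, with a critical value of 0.71. Chance alone marks about 1 in 20 such sets. Epcam was 6.76 in HFD-vehicle mouse 3, and the nearest HFD-vehicle mouse had 6.01 (ratio 0.75). Itgax was 4.34 in HFD-vehicle mouse 1, and the nearest HFD-vehicle mouse had 3.58 (ratio 0.82). The Epcam call for HFD-vehicle against CD-vehicle skin was lost without the first mouse, and the Itgax change under imiquimod in HFD-fed mice turned its sign without the second. The causes were not tested.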

How the results depend on the processing

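Over 56 changes of the 8 genes, 1593 alternative values were computed. Of these 1509 kept direction and side of the threshold, 39 lost a call, 17 gained one and 28 turned their sign, and 40 changes kept both in every alternative. All sign changes concerned values that were not called. Flt3 in HFD-IMQ against HFD-vehicle gave 0.0174 with quantile normalisation, 0.0118 with array medians subtracted and 0.0025 with array weights, and -0.0648 to 0.0656 when leaving out single arrays. Irf8 for the diet averaged over creams gave 0.0276 with array weights and 0.12 without the 3 farthest arrays (-0.0818 to 0.0395 without single arrays), and Irf8 in HFD-IMQ against CD-IMQ gave -0.0132 as the mean of both features. Without the 3 farthest arrays the Itgax interaction was -0.0166 (-0.0092 to 0.27 without single arrays) and Xcr1 in HFD-vehicle against CD-vehicle was 0.0243. Leaving out single arrays also gave -0.0446 to 0.0698 for Ccr7 under imiquimod averaged over diets, -0.16 to 0.0744 for the Cd207 interaction, -0.12 to 0.0233 for the Xcr1 interaction and -0.21 to 0.0218 for Itgax in HFD-IMQ against HFD-vehicle.

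The number of the 8 genes called in CD-IMQ against CD-vehicle (2) was 1 with array medians subtracted, 1 with these groups alone and 0 to 3 without single arrays. In HFD-vehicle against CD-vehicle (1) it was 2 with array weights, 0 with these groups alone and 0 to 2 without single arrays. For imiquimod averaged over diets (2) it was 1 to 3 without single arrays. With the replicate block these counts were 0, 0 and 1. The limma adjusted p was then 0.0515 for Irf8, 0.0622 for Siglech, 0.0528 for Epcam and 0.0507 for averaged Siglech. The labels give no pairing by replicate number, and whether there was one could not be decided. Of the dendritic cell list, the 8 lower in CD-IMQ skin were 4 with quantile normalisation, 5 with these groups alone, 5 without the 3 farthest arrays and 4 to 9 without single arrays. The 2 lower in HFD-IMQ skin were 1 with array medians subtracted, the replicate block, these groups alone or the 3 arrays left out, and 1 to 2 without single arrays. The 3 lower in HFD-vehicle skin were 1 with these groups alone or the 3 arrays left out. Leaving out dim genes removed Xcr1 and raised the share of all genes called in CD-IMQ against CD-vehicle to 19.5%. The causes were not tested.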
